A study of Mus musculus with 32 samples.

Results

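Fibro-adipogenic progenitor markers are described here in RNA sequencing of mouse quadriceps muscle. The set holds 10 genes, Pdgfra, Pdgfrb, Ly6a, Cd34, Dpt, Pi16, Dpp4, Gsn, Mfap5 and Clec3b, which were taken by name from the 53801 gene IDs of the deposited tables. Each name matched 1 ID, and all 10 genes had at least 1 TPM (transcript abundance per unit of length, scaled to the same total in every library) in each of the 32 libraries, so all 10 were among the 12817 genes tested. Each of the 8 groups held 4 mice, and each mouse gave 1 library: wild type (WT) or Col6a2-/-, female or male, 5 or 25 weeks old. Col6a2-/- mice were homozygous for the germline allele C57BL/6N-Col6a2tm1(KOMP)Vlcg, which inactivates the gene for the α2 chain of collagen VI, a matrix protein around muscle fibres. It had been moved onto C57BL/6J over 5 generations, and both genotypes came from heterozygous parents, so that part of the C57BL/6N genome may remain beside the allele. The RNA came from sections of whole frozen muscle with all of its cell types, and the series title places the comparison in the control of TGFβ by collagen VI.

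Fibro-adipogenic progenitors are mesenchymal cells that lie between muscle fibres and around vessels. They make much of the muscle's extracellular matrix, including collagen VI, support muscle stem cells during repair, and can give rise to fibroblasts, myofibroblasts and adipocytes. PDGF ligands act on them through the receptor tyrosine kinases encoded by Pdgfra and Pdgfrb, and TGFβ drives them towards matrix production. None of the 10 genes belongs to these cells alone. Pdgfrb is also used by pericytes and smooth muscle, Ly6a and Cd34 by endothelium, Cd34 by muscle stem cells, and Gsn by many cell types. In libraries of whole muscle, fewer cells of a type and less RNA per cell cannot be told apart.

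The start-site sequences of Pdgfra, Cd34, Dpt and Gsn are shown because these genes rose in Col6a2-/- muscle at 25 weeks and had an entry in the promoter table. They are the 150 bases before the RefSeq transcript start on GRCm38.p6, plus strand, 5′ to 3′, for the first of 3 listed starts in the case of Gsn. Pdgfra lies at chr5:75152101-75152250, Cd34 at chr1:194938671-194938820, Dpt at chr1:164796513-164796662 and Gsn at chr2:35256209-35256358. Capitals mark matches to the GC box GGGCGG or its reverse complement.
Pdgfra: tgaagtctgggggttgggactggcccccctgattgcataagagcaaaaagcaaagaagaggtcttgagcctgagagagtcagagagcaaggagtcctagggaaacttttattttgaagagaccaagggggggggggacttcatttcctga
Cd34: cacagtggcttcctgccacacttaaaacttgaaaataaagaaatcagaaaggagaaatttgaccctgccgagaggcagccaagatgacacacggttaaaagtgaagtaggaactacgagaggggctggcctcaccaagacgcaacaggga
Dpt: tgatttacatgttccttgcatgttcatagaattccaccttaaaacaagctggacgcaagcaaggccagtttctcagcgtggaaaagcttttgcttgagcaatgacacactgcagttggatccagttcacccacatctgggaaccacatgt
Gsn: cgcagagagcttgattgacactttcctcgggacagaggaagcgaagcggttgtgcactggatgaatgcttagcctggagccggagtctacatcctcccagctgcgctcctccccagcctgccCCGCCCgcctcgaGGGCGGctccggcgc
In the 250 bases before the start, none of Pdgfra, Cd34 and Dpt held a match, on either strand, to the SMAD motif CAGACA, the AP-1 motif TGANTCA, the TEAD motif GGAATG, the GC box, TATAAA or CCAAT. These letters occur in 17.13%, 6.75%, 12.64%, 32.74%, 12.37% and 33.85% of 32851 RefSeq promoter windows of that length. Gsn held 2 GC boxes before this start, both within the printed bases. Entries were found for 6 of the 10 genes. A match is a description of the letters, and its absence says nothing about whether a factor binds.

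The libraries were checked on the targeted gene first. Col6a2 had 33.2 ± 11.3 TPM in WT and at most 0.171 TPM in any Col6a2-/- library at 5 weeks, and 10.7 ± 2.79 TPM in WT and at most 0.0344 TPM in Col6a2-/- at 25 weeks (mean ± SD, n = 8). Skeletal muscle fibre genes summed to between 24882 and 42964 TPM per library, so the defining genes of the labelled tissue were present. The labels name no batch. Inferred depth was 6.78 to 13.69 gigabases per library, which serves only to compare libraries. Mitochondrial genes took 31.9% to 46.9% and the Rn7s genes 20.8% to 30.5% of the TPM. Within groups, some libraries were the highest or the lowest of their 4 in 7 or more of the 10 markers. Replicate 2 of the 5-week Col6a2-/- females was the highest of its 4 in 8 of 10 markers and replicate 4 the lowest in 9. Replicate 1 was the highest in 9 of 10 among the Col6a2-/- males of either age, and replicate 4 of the 25-week WT males in 7. Replicate 4 of the 25-week WT females and of the 5-week Col6a2-/- males and replicate 2 of the 5-week WT males were the lowest in 7 each. Replicates 2 and 3 of the 25-week WT males were the lowest in 5 each.

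In the deposited annotation (GRCm38), Gsn (ENSMUSG00000026879) lies on the plus strand at chr2:35256380-35307892 and Dpp4 (ENSMUSG00000035000) on the minus strand of the same chromosome at chr2:62330073-62412231. Cd34 (ENSMUSG00000016494) at chr1:194938819-194961279 and Dpt (ENSMUSG00000026574) at chr1:164796644-164824266 share a chromosome, both on the plus strand. Pdgfra (ENSMUSG00000029231) lies at chr5:75152292-75198215, Pi16 (ENSMUSG00000024011) at chr17:29318877-29329413, Mfap5 (ENSMUSG00000030116) at chr6:122505845-122529290 and Clec3b (ENSMUSG00000025784) at chr9:123150946-123157432, on the plus strand, and Ly6a (ENSMUSG00000075602) at chr15:74994877-74998031, on the minus strand. Pdgfrb has the ID ENSMUSG00000024620. Pdgfra overlaps 3 other annotated genes and Cd34, Dpt, Dpp4 and Gsn 1 each, none of which exceeded 0.633 TPM in any library. Whether the counting used strand is not given in the sources used here, so reads of such a pair may have been shared.

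Levels per transcript length spanned a wide range. Gsn, which encodes the actin-severing protein gelsolin, had the highest median at 335.02 TPM, and Dpp4 the lowest at 2.36 TPM. Dpt, Cd34, Ly6a and Pdgfra had medians of 40.2, 31.1, 21.7 and 10.6 TPM over the 32 libraries. Mfap5, Pdgfrb, Clec3b and Pi16 lay at 9.40, 7.11, 6.51 and 6.47 TPM. Across the 8 group means, Mfap5 varied most, by a factor of 5.70 between its highest group (5-week Col6a2-/- males) and its lowest (25-week WT males), and Pi16 least, by 1.79. The 25-week WT males had the lowest mean of all groups for 8 of the 10 markers, all but Ly6a and Gsn. Replicates 1 to 3 of that group also had the highest mitochondrial shares of the series, 44.6%, 44.9% and 46.9%, and the fewest genes at 1 TPM or more, 10611, 10399 and 10434. In replicate 4 they were 32.01% and 10877, and the part of these measures in the 25-week differences was not tested. When the groups were ordered by mean, most neighbours overlapped. Of the 7 neighbouring pairs per gene, ranges were separate for 2 pairs in Mfap5 and 1 each in Pdgfra and Cd34, and for none in the other 7 genes.

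**Figure D1:**
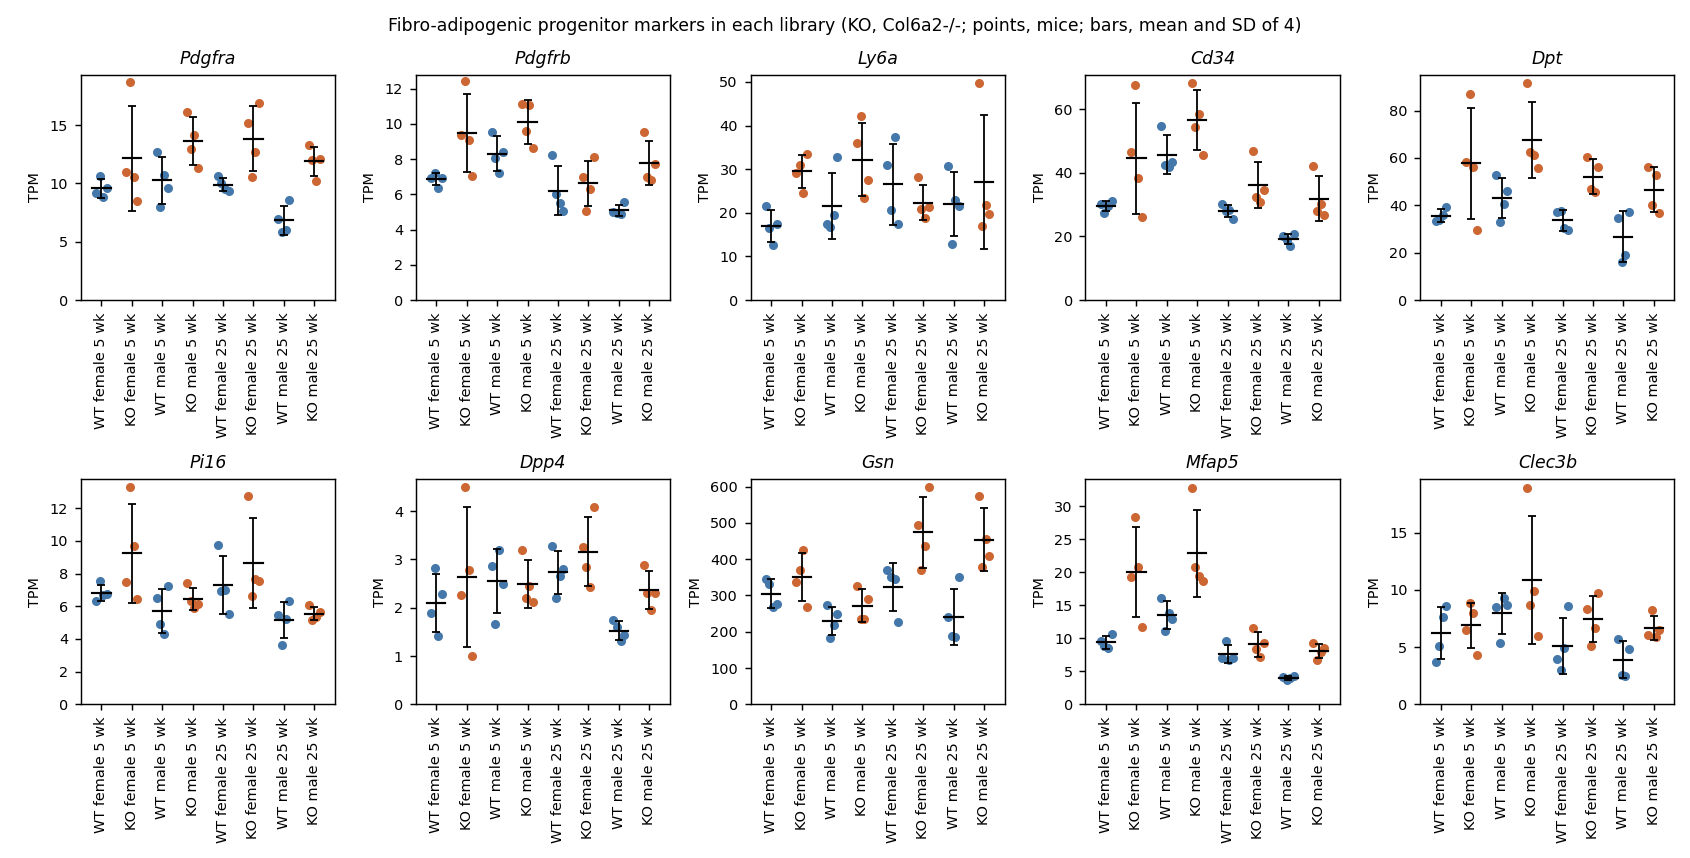
TPM of the 10 markers in each of the 8 groups, 1 point per mouse, with the mean and SD of 4 mice (blue, WT; orange, Col6a2-/-). At 5 weeks all 4 Col6a2-/- females and all 4 Col6a2-/- males lie above the highest WT mouse of their sex for Mfap5, while for Dpp4 the genotypes overlap.

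At 5 weeks, 6 of the 10 markers rose in Col6a2-/- muscle over both sexes (limma on log2(TPM + 1), Benjamini-Hochberg adjusted p under 0.05, two-sided) and none fell. Over all tested genes 23.2% were called higher at this age. The 6 were Mfap5, Dpt, Ly6a, Pdgfrb, Cd34 and Pdgfra. Female 2 and males 1 and 3 of the 5-week Col6a2-/- mice had the most genes at 1 TPM or more of the series, 12877, 12610 and 12405. Female 4 of these mice had 10903, and the part of this measure in the 5-week differences was not tested. The median difference of the 10 markers was 0.32 on the log2 scale, against 0.15 for all tested genes, and every marker but Dpp4 lay above the all-gene median. At 25 weeks 5 of 10 rose, namely Gsn, Pdgfra, Dpt, Mfap5 and Cd34, against 4.47% of all tested genes, and none fell. The median of the markers was then 0.53, against 0.082 for all tested genes, and every marker but Ly6a lay above it. Pdgfra, Cd34, Dpt and Mfap5 were called at both ages, and Pi16, Dpp4 and Clec3b at neither. No marker separated the 8 Col6a2-/- libraries fully from the 8 WT libraries at 5 weeks, where 1.18% of tested genes did so with Col6a2-/- higher, or at 25 weeks, where 0.663% did.

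Scaling moves the baseline of these differences. With median-of-ratios scaling the all-gene median at 5 weeks went from 0.15 to 0.00059, the share of called genes that were higher in Col6a2-/- from 91.6% to 52.3%, and 2 of the 10 markers, Dpt and Mfap5, stayed called. Under that scaling 1623 of the 12817 tested genes were called higher at 5 weeks. The median of the markers went from 0.32 to 0.15 at 5 weeks and from 0.53 to 0.42 at 25 weeks. At 25 weeks the share of higher calls went from 95.02% to 58.5%, and 6 markers were called, against 750 of the 12817 tested genes called higher. With quantile normalization the shares were 45.8% at 5 weeks and 57.0% at 25 weeks, with 4 and 5 markers called. Of the 12817 tested genes, 1413 and 483 were then called higher. All 10 differences were positive at both ages as deposited, but under each of these scalings Dpp4 turned negative at 5 weeks and Ly6a at 25 weeks, where Ly6a was also negative from FPKM and after rescaling to the total without mitochondrial and Rn7s genes.

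**Figure D2:**
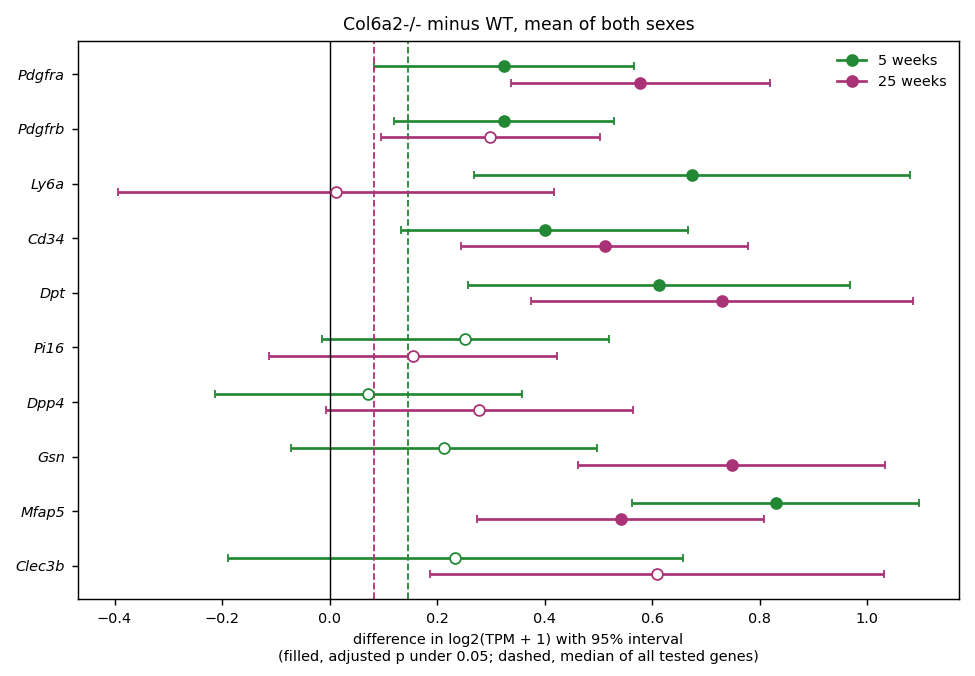
Difference in log2(TPM + 1) between Col6a2-/- and WT for each marker at 5 weeks (green) and 25 weeks (purple), with the 95% interval from the limma fit; filled points have an adjusted p under 0.05 and dashed lines mark the median of all tested genes. Mfap5 is farthest right at 5 weeks (0.83) and Gsn at 25 weeks (0.75), and Ly6a sits near 0 at 25 weeks (0.011).

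Pdgfra encodes the PDGF receptor used to sort fibro-adipogenic progenitors. At 5 weeks WT mice had 9.19, 10.7, 8.80 and 9.64 TPM in females and 12.7, 7.998, 10.7 and 9.59 TPM in males. Pdgfra in Col6a2-/- mice was 10.97, 18.7, 10.5 and 8.46 TPM in females and 16.2, 12.9, 14.1 and 11.4 TPM in males. The genotypes overlapped, with 7 of 8 Col6a2-/- libraries above the WT mean of their sex, and the difference was 0.32 (SE 0.118, limma adjusted p 0.0431). Of the genotype calls over both sexes this was the closest to the threshold. It was also lost with no filter on low values (limma adjusted p 0.0799), from FPKM (0.0588) and in a fit on the 5-week libraries alone (0.105), with differences of 0.29 to 0.32. With median-of-ratios scaling the difference was 0.15 (0.174), with quantile normalization 0.17 (0.135), and without replicate 2 of the Col6a2-/- females and 1 of the Col6a2-/- males 0.18 (0.257). It was lost too when any of 10 single libraries was left out (WT females 1, 3 or 4, WT males 2, 3 or 4, Col6a2-/- females 1 or 2, Col6a2-/- males 1 or 3), with a difference of 0.22 without replicate 2 of the 5-week Col6a2-/- females.

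At 25 weeks all WT males had less Pdgfra than the WT females. WT mice had 10.7, 10.01, 9.56 and 9.39 TPM in females and 6.97, 5.82, 5.97 and 8.56 TPM in males. The Col6a2-/- values of Pdgfra were 15.2, 10.6, 12.7 and 16.9 TPM in females and 13.3, 11.98, 10.2 and 12.1 TPM in males. All 8 Col6a2-/- libraries lay above the WT mean of their sex and 7 above the highest WT library of their sex. The difference of 0.58 (SE 0.118, limma adjusted p 0.00457) kept its call in all 32 fits that each left out 1 library. Without replicates 2 and 3 of the 25-week WT males it was 0.49, with a limma adjusted p of 0.0689.

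Pdgfrb encodes the second PDGF receptor, which pericytes also carry. WT means were 6.85 ± 0.346 TPM in females and 8.31 ± 0.977 TPM in males at 5 weeks, against 9.47 ± 2.22 and 10.1 ± 1.23 TPM in Col6a2-/- (SD, n = 4). All 8 Col6a2-/- libraries exceeded the WT mean of their sex, and the difference was 0.32 (SE 0.0999, limma adjusted p 0.0186). It was 0.26 and no longer called without replicate 2 of the 5-week Col6a2-/- females, 0.15 with median-of-ratios scaling (limma adjusted p 0.086) and 0.17 with quantile normalization (0.0621). At 25 weeks the difference of 0.30 did not pass the test (SE 0.0999, limma adjusted p 0.0822). It passed at a difference of 0.20 with median-of-ratios scaling (limma adjusted p 0.0461) and of 0.25 with array weights (0.0283), and in 4 of 32 fits with 1 library left out (25-week WT female 1, 5-week Col6a2-/- females 2 and 4, 25-week Col6a2-/- female 2). In WT mice of that age, males lay within 4.90 to 5.55 TPM and females between 5.07 and 8.25 TPM.

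The ligands of these receptors were read from the same libraries. Of the 4 PDGF ligand genes, Pdgfc did not pass the TPM filter, with at most 1.07 TPM in any library. Of the other 3, limma called 0 between genotypes at 5 weeks (1 at an unadjusted p under 0.05) and 0 at 25 weeks (0 at an unadjusted p under 0.05). Over all tested genes 23.2% and 4.47% were called higher. At 5 weeks Pdgfa differed by -0.28, Pdgfb by 0.084 and Pdgfd by 0.12. The median of the 3 was 0.084 at 5 weeks and 0.071 at 25 weeks. With age, 2 of the 3, Pdgfb and Pdgfd, fell in each genotype, against 15.3% of all tested genes in WT and 28.8% in Col6a2-/-.

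Ly6a encodes the surface protein Sca-1, with which these cells are commonly sorted. At 5 weeks WT mice had 21.5, 16.4, 12.7 and 17.4 TPM in females and 17.4, 16.7, 19.4 and 32.7 TPM in males. Ly6a in Col6a2-/- mice was 29.2, 31.1, 24.5 and 33.4 TPM in females and 35.98, 42.1, 23.3 and 27.5 TPM in males. In females the ranges did not overlap, and in males replicate 4 of the WT group lay among the Col6a2-/- values. The difference was 0.67 (SE 0.198, limma adjusted p 0.0139), and all 8 Col6a2-/- libraries lay above the WT mean of their sex. None of the 32 fits with 1 library left out lost this call. It was lost with median-of-ratios scaling, at 0.49 (limma adjusted p 0.0755), and without replicate 2 of the Col6a2-/- females and 1 of the Col6a2-/- males, at 0.63 (0.0577).

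At 25 weeks Ly6a showed no such separation. WT mice had 30.9, 20.6, 37.4 and 17.3 TPM in females and 30.7, 12.8, 23.01 and 21.5 TPM in males. The Col6a2-/- values of Ly6a were 28.1, 20.9, 18.9 and 21.4 TPM in females and 49.8, 16.9, 21.8 and 19.7 TPM in males. Only 2 of 8 Col6a2-/- libraries lay above the WT mean of their sex, and replicate 1 of the males was above every other library of the series. The difference was 0.011, with a 95% interval from -0.39 to 0.42 (SE 0.198, limma adjusted p 0.983). Without that library it was -0.15. The change in the genotype difference from 5 to 25 weeks was -0.66 (SE 0.280, unadjusted p 0.02504 in limma), which did not pass the adjustment (limma adjusted p 0.572).

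Cd34 encodes a sialomucin of progenitor and endothelial surfaces. At 5 weeks WT mice had 30.1, 27.3, 29.6 and 31.3 TPM in females and 54.8, 42.7, 41.9 and 43.4 TPM in males. Cd34 in Col6a2-/- mice was 46.5, 67.6, 38.3 and 26.02 TPM in females and 68.4, 54.5, 58.5 and 45.7 TPM in males. WT males were all above WT females, and the Col6a2-/- females spread on both sides of the WT females, with replicate 4 below them all. The difference was 0.40 (SE 0.131, limma adjusted p 0.0253), with 6 of 8 libraries above the WT mean of their sex. It was 0.29 and no longer called without replicate 2 of the 5-week Col6a2-/- females, and likewise lost its call without replicate 1 of either sex of that group. At the same difference of 0.40 it was not called with no filter on low values (limma adjusted p 0.0506) or in a fit on the 5-week libraries alone (0.0747). The difference was 0.21 with median-of-ratios scaling (0.0635), and 0.24 without that female 2 and male 1 together (0.171).

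The Cd34 genotypes were separate within each sex at 25 weeks. WT mice had 30.1, 28.1, 28.4 and 25.4 TPM in females and 20.2, 19.00, 17.01 and 20.8 TPM in males. The Col6a2-/- values of Cd34 were 46.9, 32.4, 30.9 and 34.6 TPM in females and 42.3, 27.97, 30.4 and 26.9 TPM in males. All 8 Col6a2-/- libraries exceeded the highest WT library of their sex. The difference was 0.51 (SE 0.131, limma adjusted p 0.0208). It was not called with no filter on low values (limma adjusted p 0.0571). Leaving out 1 library took the call away in 4 of 32 fits (WT females without replicate 4, WT males without 3, and Col6a2-/- females or males without 1), with differences of at least 0.44. Without replicates 2 and 3 of the WT males it was 0.47, with a limma adjusted p of 0.126.

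Dpp4, a cell-surface peptidase, and Pi16, a secreted peptidase inhibitor, mark the progenitors of the vessel adventitia. Neither was called at either age. Dpp4 differed by 0.072 at 5 weeks (SE 0.140, limma adjusted p 0.727, 95% interval -0.21 to 0.36) and by 0.28 at 25 weeks (SE 0.140, limma adjusted p 0.274, 95% interval -0.0075 to 0.56). At 5 weeks the Col6a2-/- females held both the lowest and the highest Dpp4 value of the series, 1.01 TPM in replicate 4 and 4.50 TPM in replicate 2. Pi16 differed by 0.25 at 5 weeks (SE 0.131, limma adjusted p 0.153, 95% interval -0.015 to 0.52) and by 0.16 at 25 weeks (SE 0.131, limma adjusted p 0.552, 95% interval -0.11 to 0.42). These intervals still hold differences as large as the called ones of Pdgfra at 5 weeks.

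Dpt encodes dermatopontin, a small matrix protein that binds collagen fibres. At 5 weeks WT mice had 33.2, 33.8, 36.1 and 39.4 TPM in females and 52.6, 33.1, 40.5 and 46.2 TPM in males. Dpt in Col6a2-/- mice was 58.4, 87.01, 56.2 and 29.6 TPM in females and 91.5, 62.3, 61.4 and 55.8 TPM in males. Every Col6a2-/- library but replicate 4 of the females lay above all WT libraries. The difference was 0.61 (SE 0.173, limma adjusted p 0.0110), and it was called in all 32 fits with 1 library left out. Without replicate 2 of the Col6a2-/- females and replicate 1 of the Col6a2-/- males together it was 0.42, with a limma adjusted p of 0.0919.

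The same gene had a like difference at 25 weeks. WT mice had 37.3, 37.6, 30.3 and 29.5 TPM in females and 34.8, 16.1, 18.8 and 37.2 TPM in males. The Col6a2-/- values of Dpt were 60.3, 46.8, 45.4 and 56.1 TPM in females and 56.4, 40.01, 52.97 and 36.9 TPM in males. Replicates 2 and 3 of the WT males were the lowest of the series, and replicate 4 of the WT males reached the range of the Col6a2-/- males. The difference was 0.73 (SE 0.173, limma adjusted p 0.0139), with 8 of 8 libraries above the WT mean of their sex. Without those 2 WT males it was 0.48 and not called (limma adjusted p 0.167).

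Mfap5 encodes a microfibril-associated glycoprotein that binds fibrillins and TGFβ family members. At 5 weeks WT mice had 9.65, 8.86, 8.45 and 10.6 TPM in females and 16.1, 11.04, 13.8 and 12.9 TPM in males. Mfap5 in Col6a2-/- mice was 19.2, 28.4, 20.7 and 11.7 TPM in females and 32.7, 20.7, 19.4 and 18.7 TPM in males. All 8 Col6a2-/- libraries lay above the highest WT library of their sex, although the lowest Col6a2-/- female fell within the range of the WT males. The difference was 0.83, a factor of 1.78 on the TPM + 1 scale (SE 0.131, limma adjusted p 3.38e-05). It kept its call in every alternative that was run, with differences from 0.65 to 0.94.

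Mfap5 was lower in all groups at 25 weeks. WT mice had 7.002, 9.57, 6.65 and 6.99 TPM in females and 4.19, 3.62, 3.98 and 4.26 TPM in males. The Col6a2-/- values of Mfap5 were 11.5, 8.35, 7.13 and 9.21 TPM in females and 9.23, 6.67, 7.97 and 8.54 TPM in males. The male ranges were separate, and the female ranges overlapped. The difference over both sexes was 0.54 (SE 0.131, limma adjusted p 0.0151), with 7 of 8 libraries above the WT mean of their sex. It was 0.51 with a limma adjusted p of 0.0928 without replicates 2 and 3 of the WT males.

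Clec3b encodes tetranectin, a plasminogen-binding lectin. It ranged from 2.46 to 18.9 TPM over the 32 libraries. At 5 weeks the difference was 0.23 (SE 0.207, limma adjusted p 0.410), where replicate 1 of the Col6a2-/- males had 18.9 TPM and the rest of its group 6.02 to 9.93 TPM. At 25 weeks it was 0.61 (SE 0.207, limma adjusted p 0.0870). All 8 Col6a2-/- libraries then lay above the WT mean of their sex, without passing the test. It passed with array weights, at 0.64 (limma adjusted p 0.0154), without replicate 4 of the WT females, at 0.73, and at 0.61 without the 5-week Col6a2-/- female 2 and male 1 (0.0416). Without replicates 2 and 3 of the WT males it was 0.40 (0.427). The 5-week difference was 0.092 without replicate 1 of the Col6a2-/- males.

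Gsn had the largest difference and the smallest adjusted p of the 10 markers at 25 weeks. At 5 weeks WT mice had 346, 332, 267 and 276 TPM in females and 272, 184, 217 and 249.8 TPM in males. Gsn in Col6a2-/- mice was 338, 369.8, 426 and 267 TPM in females and 327, 235, 235 and 291 TPM in males. These ranges overlapped in both sexes, and the difference of 0.21 did not pass the test (SE 0.139, limma adjusted p 0.260).

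By 25 weeks the Gsn values of Col6a2-/- mice stood higher. WT mice had 369.8, 351, 346 and 226 TPM in females and 241, 187, 187 and 350.0 TPM in males. The Col6a2-/- values of Gsn were 493, 369, 436 and 599 TPM in females and 575, 378, 455 and 408 TPM in males. Of the 8 Col6a2-/- libraries, 7 lay above the highest WT library of their sex. The difference was 0.75, a factor of 1.68 (SE 0.139, limma adjusted p 0.00236), and it was called in every alternative that was run, with differences from 0.59 to 0.85. The change in the genotype difference between ages was 0.54 (SE 0.197, unadjusted p 0.01104 in limma) and did not pass the adjustment (limma adjusted p 0.442).

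Within each sex, with 4 mice against 4, fewer markers passed. In 5-week females only Mfap5 was called (1 of 10, 0.96, limma adjusted p 0.00122), against 12.3% of all tested genes higher in Col6a2-/-. In 5-week males Mfap5 alone was called as well (1 of 10, 0.70, limma adjusted p 0.0221), against 4.55% of genes. In 25-week females limma called 0 of 10 (3 at an unadjusted p under 0.05), with 0% of all genes called higher and 621 genes at an unadjusted p under 0.05. The 3 at an unadjusted p under 0.05 were Dpt at 0.61, Gsn at 0.55 and Pdgfra at 0.43. In 25-week males 5 of 10 were called, against 2.91% of genes: Gsn at 0.94, Mfap5 at 0.85, Pdgfra at 0.73, Cd34 at 0.68 and Pdgfrb at 0.51 (limma adjusted p 0.0105, 0.0119, 0.0177, 0.0402 and 0.0424). Dpt in those males differed by 0.84 and just missed the threshold (limma adjusted p 0.0543). It passed in 8 of 12 alternatives, some of which left out 5-week libraries. Its difference was 0.64 without WT replicate 2 and 0.34 without WT replicates 2 and 3. The largest limma adjusted p of any alternative was 0.652. The Mfap5 call in 5-week males was lost without WT replicate 2 or 4 or Col6a2-/- replicate 1, and in 5-week females 4 markers were called without Col6a2-/- replicate 4 and 2 without replicate 1 of the 25-week WT females or of the 25-week Col6a2-/- males. The male calls at 25 weeks depended on single libraries, although with any 1 library left out the differences were at least 0.82 for Gsn, 0.80 for Mfap5, 0.67 for Pdgfra, 0.54 for Cd34 and 0.42 for Pdgfrb. None of the 5 was called without replicate 2 of the 25-week WT males or without replicate 1 of the 25-week Col6a2-/- males. Without replicate 3 of those WT males 1 was called. Without replicate 1 of those WT males or replicate 3 of those Col6a2-/- males, 3 of the 5 stayed called. Pdgfrb lost its call in 10 of 32 such fits, some of which left out libraries of other groups, and Cd34 in 5.

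The sexes and ages were then compared directly. No marker was called for a genotype difference that varied with sex over both ages (0 of 10, and 0 at an unadjusted p under 0.05 in limma, against 0.0156% of genes called and 206 genes at an unadjusted p under 0.05). None was called within 5 weeks (0 of 10, and 0 at an unadjusted p under 0.05 in limma, against 0% of genes called, with 253 genes at an unadjusted p under 0.05). Within 25 weeks it was again 0 of 10 in limma (2 at an unadjusted p under 0.05), against 0.0156% of genes called, with 432 genes at an unadjusted p under 0.05. The 2 were Mfap5 and Pdgfrb, whose difference in males exceeded that in females by 0.63 and 0.43 (unadjusted p 0.02316 and 0.04017, limma adjusted p 0.991 for both). For the genotype difference by age, likewise, 0 of 10 markers were called in limma (2, Gsn and Ly6a, at an unadjusted p under 0.05), against 0.492% of genes, with 898 genes at an unadjusted p under 0.05. The calls at 1 age or in 1 sex are therefore not shown to differ from the other.

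Mfap5, Cd34 and Pdgfrb were lower at 25 than at 5 weeks in both genotypes. In WT mice 4 of 10 markers were lower at 25 than at 5 weeks, against 15.3% of all tested genes, and none was higher. Mfap5 fell by 0.90 (SE 0.131, limma adjusted p 1.124e-05), Cd34 by 0.64, Clec3b by 0.59 and Pdgfrb by 0.37 (limma adjusted p 0.000823, 0.0434 and 0.00844). In Col6a2-/- mice 3 of 10 were lower, a share close to the 28.8% of all tested genes, and 1 of 10 was higher, against 5.41%. Mfap5 fell by 1.19 (SE 0.131, limma adjusted p 6.666e-08). Its mean over both sexes was 21.4 ± 6.39 TPM at 5 weeks and 8.58 ± 1.49 TPM at 25 weeks (SD, n = 8). Cd34 fell by 0.53 and Pdgfrb by 0.40 (limma adjusted p 0.0026 and 0.00294). Gsn rose by 0.58 (SE 0.139, limma adjusted p 0.00192). Mean Gsn was 311 ± 67.2 TPM at the younger and 464 ± 86.3 TPM at the older age (SD, n = 8), and its difference with age in WT was 0.048 and not called.

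Pdgfra, Dpt, Pi16, Dpp4 and Ly6a were called with age in neither genotype. With array weights, however, Pdgfra (-0.24, limma adjusted p 0.0301) and Dpt (-0.48, 0.00856) passed in WT. Dpt also passed in WT without 5-week Col6a2-/- females 2 and 4 (-0.41, 0.0385). Dpp4 passed in Col6a2-/- with quantile normalization (0.29, 0.0361). Leaving out certain single libraries brought a call for Dpt in either genotype, and for Ly6a in Col6a2-/- without 25-week Col6a2-/- male 1 (-0.53). The WT calls of Clec3b and Pdgfrb depend on the scaling. Rescaled to the total without mitochondrial and Rn7s genes, Clec3b differed by -0.47 (limma adjusted p 0.106) and Pdgfrb by -0.25 (limma adjusted p 0.0651). Clec3b also missed the threshold with no filter on low values, with either other scaling, from FPKM and in 10 of 32 fits with 1 library left out (all of WT: 5-week females 3 and 4, 5-week males 1, 3 and 4, 25-week females 1, 2 and 3, 25-week males 2 and 3), and differed by -0.38 without replicates 2 and 3 of the 25-week WT males (limma adjusted p 0.300). The markers' median difference with age was -0.30 in WT and -0.25 in Col6a2-/-, against -0.076 and -0.14 for all tested genes. With median-of-ratios scaling the markers' medians were -0.21 and -0.082 and those of all tested genes 0.0030 and 0.0023. The share of called genes that were higher at 25 weeks went from 22.6% to 46.7% in WT and from 15.8% to 47.6% in Col6a2-/- under that scaling, and to 51.4% and 53.2% with quantile normalization. Under both scalings Mfap5, Cd34 and Pdgfrb were called with age in both genotypes.

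**Figure D3:**
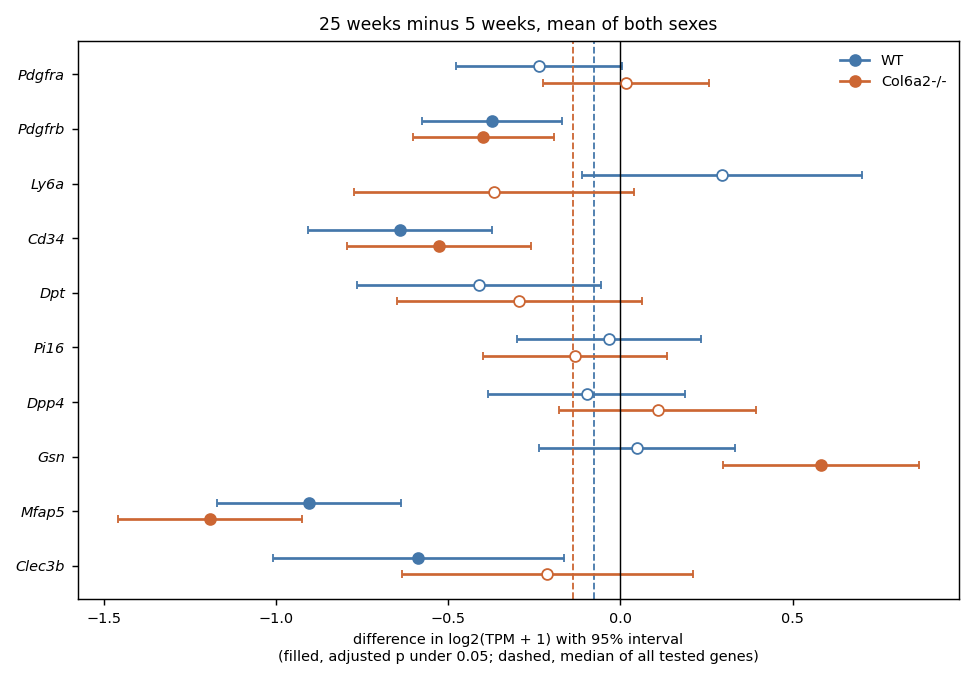
Difference in log2(TPM + 1) between 25 and 5 weeks for each marker in WT (blue) and Col6a2-/- (orange), with the 95% interval from limma; filled points have an adjusted p under 0.05. Mfap5 lies farthest left in both genotypes (-0.90 and -1.19), and Gsn is to the right in Col6a2-/- alone as a called change (0.58).

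Between the sexes, 1 of 10 markers was called over genotype and age, against 1.18% of genes lower in males. Pi16 was 0.40 lower in males on the log2 scale (SE 0.0924, limma adjusted p 0.0101). Its group means were 6.83 ± 0.497 and 7.29 ± 1.76 TPM in WT females against 5.74 ± 1.34 and 5.15 ± 1.11 TPM in WT males at 5 and 25 weeks (SD, n = 4). The Col6a2-/- females had 9.24 ± 3.04 and 8.65 ± 2.77 TPM against 6.44 ± 0.677 and 5.55 ± 0.416 TPM in males. The female mean was higher in each of the 4 pairs, with ranges that overlapped in all pairs but the 25-week Col6a2-/- mice. Gsn was -0.32 in males without passing the test (limma adjusted p 0.0792).

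The 10 markers varied together from mouse to mouse. As deviations from the mean of each group over the 32 libraries, all 45 pairs had a positive Pearson r, with a median of 0.61, and 29 exceeded 0.5. Cd34 and Mfap5 were the most alike, at 0.81, followed by Pdgfra with Pdgfrb at 0.80. Ly6a and Clec3b were the least alike, at 0.019. With the mean of the other 9 markers, Dpt had an r of 0.87 and Pdgfra 0.86, against 0.46 for Clec3b and 0.33 for Ly6a. These values share each library's depth and composition. The same deviations had an r of 0.23 to 0.91 with the number of genes at 1 TPM or more, and of -0.57 to -0.059 with the mitochondrial share. With inferred depth r ran from -0.52 for Cd34 to 0.12 for Clec3b. With the mean of the macrophage genes r ran from 0.30 for Ly6a to 0.88 for Dpt. It was similar with the mean of other fibro-adipogenic progenitor and fibroblast genes, from 0.22 for Ly6a to 0.86 for Pdgfra. The part of these measures in the shared variation was not tested.

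**Figure D4:**
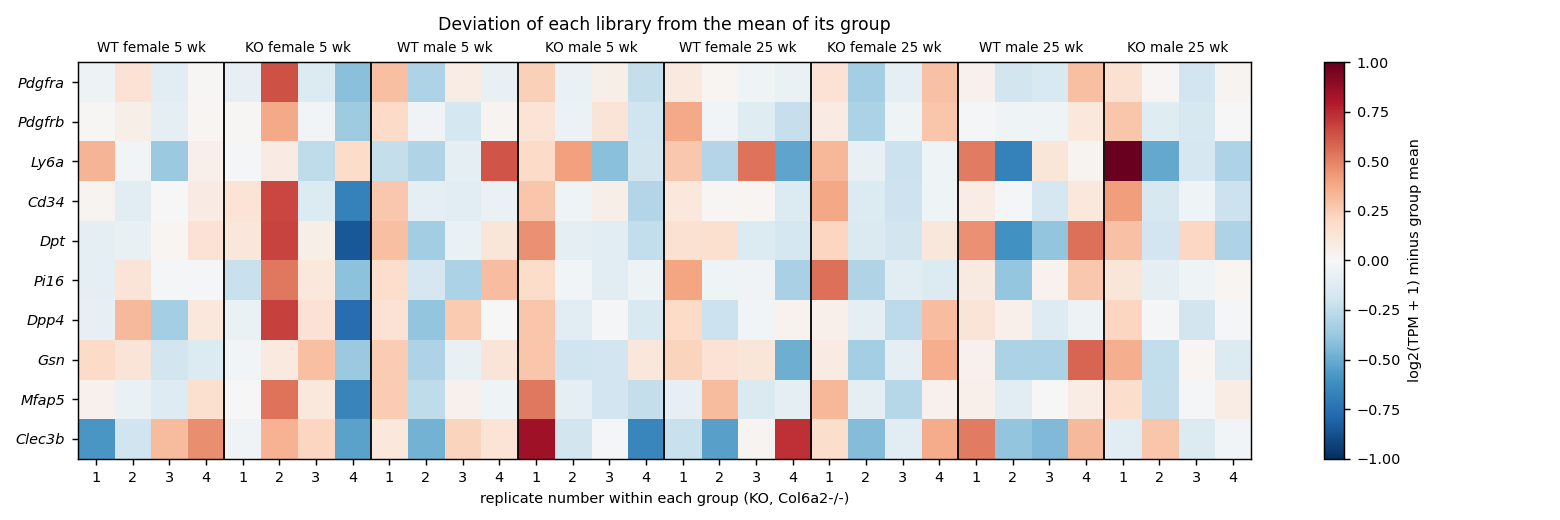
Deviation of each library from its group mean in log2(TPM + 1), for the 10 markers (rows) and the 32 libraries (columns, by group and replicate number; red above, blue below, the colour scale capped at 1 and -1). Replicate 2 of the 5-week Col6a2-/- females is the highest of its group in 8 of 10 rows and replicate 4 the lowest in 9.

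Outside the set, the genes most like the mean of the 10 markers in these deviations included Csf1r, Eef1a1, Rnase4 and Grn, with an r of 0.93, 0.91, 0.91 and 0.91. They were taken from 5387 genes with a mean of at least 5 TPM. Csf1r encodes the macrophage growth factor receptor, Grn a lysosomal protein, and Eef1a1 a translation elongation factor.

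Other genes of the same cells were read from lists written by hand with earlier results of these data known. Of 15 tested fibro-adipogenic progenitor and fibroblast genes outside the set, 8 rose in Col6a2-/- at 5 weeks, with a median of 0.62, and 8 rose at 25 weeks, with a median of 0.57, against 23.2% and 4.47% of all tested genes. Fbln2 (fibulin-2) rose by 0.69 and 0.52 at the 2 ages, Islr by 0.77 and 0.71, and Fstl1 (follistatin-like 1) by 0.83 and 0.84. At 5 weeks Vim, which encodes the intermediate filament vimentin, rose by 0.72, and at 25 weeks the fibrillar collagen gene Col3a1 rose by 1.25 (limma adjusted p 0.00125). With age 8 of the 15 fell in each genotype, against 15.3% of all tested genes in WT and 28.8% in Col6a2-/-. They included Col1a1, Col1a2 and Col3a1, with differences of -3.60, -3.07 and -2.60 in WT and of -2.86, -2.51 and -2.39 in Col6a2-/-.

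The 2 kinds of progenitor were described by separate lists. Of 11 tested genes of the adventitial progenitors that Pi16 and Dpp4 mark, 2 rose at 5 weeks, with a median of 0.062, and 4 at 25 weeks, with a median of 0.26. Over all tested genes 23.2% and 4.47% were called higher, with medians of 0.15 and 0.082. On the TPM as deposited, the 5-week count and median of this list were thus no higher than those of all genes. With quantile normalization the list's 5-week count, in either direction, was larger, and in a fit on the 5-week libraries alone it was smaller. Fbn1 (fibrillin-1) rose by 0.62 and 0.83 and Cd55, a complement regulator, by 0.59 and 0.43. Ackr3, a chemokine scavenger receptor, rose by 0.61 and Igfbp6 by 0.60 at 25 weeks. For the genotype difference by age 1 of the 11 was called, against 0.492% of all tested genes, namely Ackr3, whose difference was 0.54 larger at 25 weeks (limma adjusted p 0.0466). Of the 10 genes of the interstitial progenitors, 0 were called in limma at either age (2 and 3 at an unadjusted p under 0.05), with medians of 0.13 and 0.15. A difference between the 2 lists was not tested.

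Genes of activated fibroblasts and myofibroblasts were read from a further list. At 5 weeks 8 of 9 tested genes rose, with a median of 0.77, and 3 of 9 rose at 25 weeks, with a median of 0.38, against 23.2% and 4.47% of all tested genes. Postn (periostin) rose by 1.97 at 5 weeks (SE 0.299, limma adjusted p 2.095e-05) and by 1.50 at 25 weeks. Timp1, a metalloproteinase inhibitor, rose by 1.65 and 0.89, and the transcription factor gene Runx1 by 1.30 and 0.62. Adam12 rose by 0.70 at 5 weeks. For the genotype difference by age, 0 of the 9 were called in limma (4 at an unadjusted p under 0.05), so the ages are not shown to differ. Of the same 9 genes, 7 fell with age in WT, against 15.3% of all tested genes, and 9 in Col6a2-/-, against 28.8%.

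**Figure D5:**
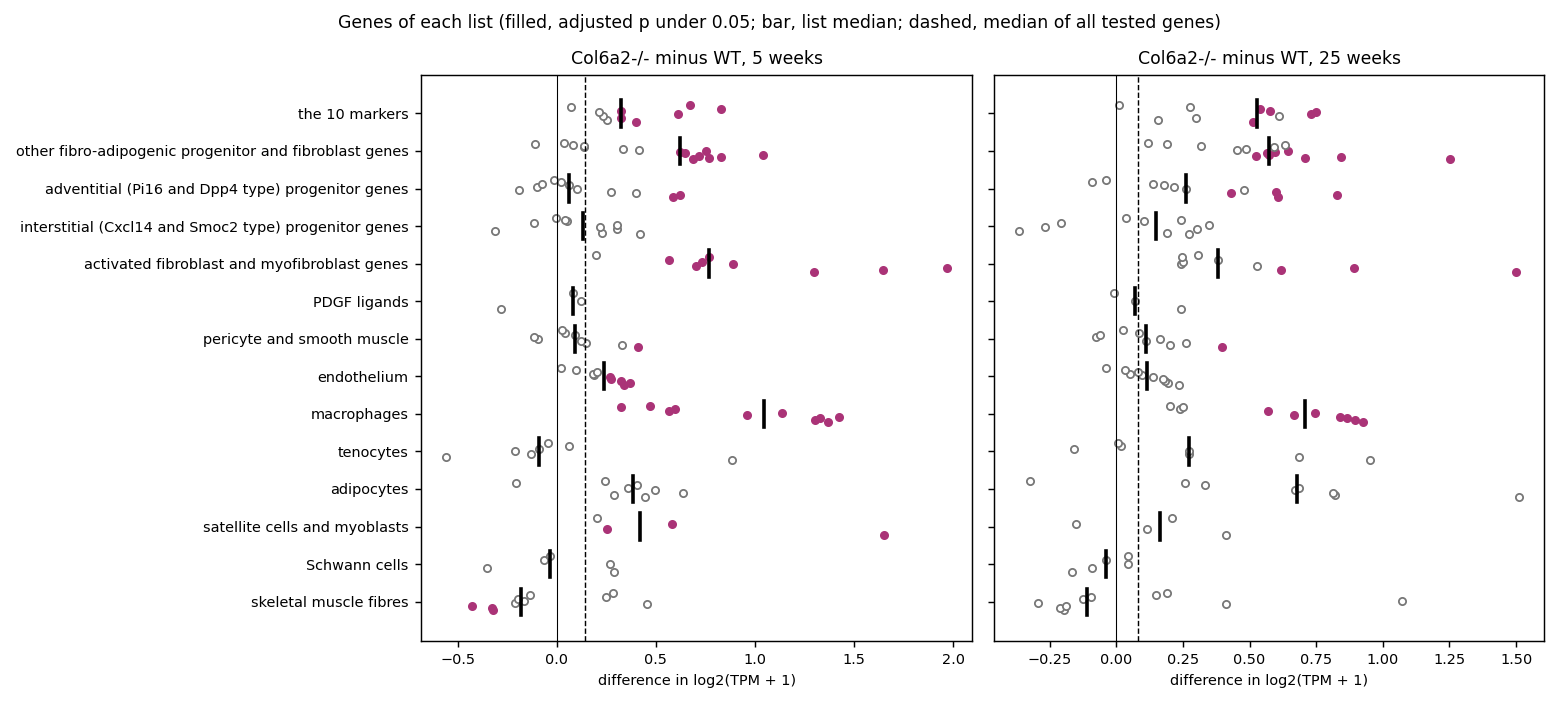
Difference in log2(TPM + 1) between Col6a2-/- and WT at 5 weeks (left) and 25 weeks (right) for the tested genes of the 10 markers and of each cell type list, 1 point per gene; filled points have an adjusted p under 0.05, bars are list medians and dashed lines the median of all tested genes. At 5 weeks the macrophage and activated fibroblast lists have the highest medians (1.05 and 0.77), above that of the 10 markers (0.32).

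Markers of other cell types moved with the same comparisons. All 10 macrophage genes rose at 5 weeks, with a median of 1.05, and 7 of 10 at 25 weeks, with a median of 0.71, against 23.2% and 4.47% of all tested genes. C1qb rose by 1.37 and 0.92, and Cd68 by 1.30 and 0.86. The 10 genes summed to between 44.5 and 75.4 TPM in 5-week WT and between 50.3 and 184 TPM in 5-week Col6a2-/- libraries. At 25 weeks the sums were 25.5 to 58.6 TPM and 54.2 to 99.2 TPM, and no gene of the list was at 0. Of the 10 endothelial genes, 5 rose at 5 weeks, against 23.2% of all tested genes, with a median of 0.24 (Pecam1 by 0.34, Esam by 0.37), and 0 were called in limma at 25 weeks (2 at an unadjusted p under 0.05), where the median was 0.12. With median-of-ratios scaling, where 1623 of the 12817 tested genes were called higher, 0 of the 10 were called at 5 weeks. With quantile normalization, where 1413 were called higher, it was 1 of the 10 endothelial genes. Their sums ran from 93.8 to 159.8 TPM in WT and from 111 to 176 TPM in Col6a2-/- at 5 weeks. Of 9 pericyte and smooth muscle genes, Higd1b alone rose, by 0.41 at 5 weeks and 0.40 at 25 weeks, with list medians of 0.095 and 0.11. At 5 weeks this count of 1 of 9 was below the 23.2% of all tested genes. Of 10 muscle fibre genes, Tnnt3, Ckm and Myh4 fell at 5 weeks, by 0.32, 0.33 and 0.43, against 2.14% of all tested genes called lower, and 0 were called in limma at 25 weeks (3 at an unadjusted p under 0.05). The 5-week fibre count was larger with median-of-ratios scaling and smaller with quantile normalization. The part of these cells and of the muscle fibre genes in the differences of the 10 markers was not tested.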

How the data were processed

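RNA of quadriceps sections from 32 mice was sequenced as paired ends from TruSeq libraries, per the labels' protocols. The submitters' processing notes name FastQC, MultiQC, Trimmomatic, HISAT2, SAMtools and StringTie and the build GRCm38 (mm10). Versions, gene models and strand settings are not given in the sources used here. Each deposited table lists coverage, FPKM and TPM per gene, per the file headers. The TPM and FPKM values were computed by the authors. The deposited coverage signal, divided by FPKM, served only to infer relative depth.

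TPM was summed per gene ID, and log2(TPM + 1) was analysed for the 12817 genes that reached 1 TPM in 4 or more libraries. This scale understates the fold of low genes. All 32 libraries entered one limma fit with a mean per group (version 3.58.1, eBayes with a trend, R 4.3.3), with both sexes weighted equally and Benjamini-Hochberg adjustment over all tested genes. Calls are two-sided, at an adjusted p under 0.05. The fit was also run on simulated data with independent errors for each gene and library. Those data lack the variation that genes of a library share here, so the run does not check the calls against it. Tables were handled with Python 3.11.15, pandas 2.3.3, numpy 2.4.6, scipy 1.17.1 and data.table (1.17.8), and plots drawn with matplotlib 3.10.9.

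The 10 markers and the 14 lists were chosen with earlier results of these data known. All markers are named, and of each list at most the 4 called genes with the smallest adjusted p, all PDGF ligand genes, and the 5 genes most like the markers. Some genes that this rule takes in are not reported here. Lists carry no test. Replicate numbers were not used to pair samples, since the labels tie them to no shared source. Not every same-numbered pair correlated above 0.1, although 8 of 16 did. Whether same-numbered libraries shared an unlabelled factor was not tested beyond a replicate block run as an alternative. The alternatives were another pseudocount, filter, scaling, FPKM in place of TPM, array weights, a replicate block, a fit on fewer libraries, and leaving out libraries. Leaving out 3 pairs of libraries was chosen after seeing the data. No libraries were identical (highest r 0.984). All 32 were counted as separate mice, which this r cannot test.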

Additional observations from a re-analysis of the deposited data

Results flagged for a closer look

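Dixon's test for a single sample that stands apart was applied to each marker in each of the 8 groups, 80 tests in all, of which 6 passed the 95% critical value. Chance passes about 1 in 20. Ly6a had 32.72 TPM in replicate 4 of the 5-week WT males, with 16.72 to 19.4 TPM in the rest of the group, and 49.81 TPM in replicate 1 of the 25-week Col6a2-/- males, with 16.94 to 21.8 TPM in the rest. Cd34 had 54.83 TPM in replicate 1 of the 5-week WT males, above 41.89 to 43.37 TPM. Gsn had 226.4 TPM in replicate 4 of the 25-week WT females, below 346.3 to 369.8 TPM. Mfap5 had 9.571 TPM in replicate 2 of the 25-week WT females, above 6.653 to 7.002 TPM, and 32.66 TPM in replicate 1 of the 5-week Col6a2-/- males, above 18.72 to 20.75 TPM. No marker passed the adjusted test for a genotype difference that varies with age or sex.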

How the results depend on the processing

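Without replicate 2 of the females and 1 of the males among 5-week Col6a2-/- mice, the 6 markers called at 5 weeks became 1 (Mfap5), and with median-of-ratios scaling 2. Without replicates 2 and 3 of the 25-week WT males, the 5 called at 25 weeks became 1 (Gsn). Leaving out 1 library gave 3 to 6 at 5 weeks, the lowest without replicate 2 of the Col6a2-/- females, and 4 to 6 at 25 weeks. In 5-week females (1 called), the replicate block gave 3 (with Ly6a and Cd34) and array weights 4, with 1 to 4 when 1 library was left out. In 5-week males (1 called), rescaling without mitochondrial and Rn7s genes gave 3, and leaving out Col6a2-/- females 2 and 4 gave 2, or female 2 and male 1 gave 0, with 0 to 1 for single libraries. In 25-week males (5 called), no filter gave 2, the rescaling 3, FPKM 3 and leaving out WT males 2 and 3 gave 0, with 0 to 6 for single libraries, while array weights gave 7 and 7 other alternatives 6. Age in WT (4 called) gave 2 under the rescaling. For sex (1 called), median-of-ratios scaling, quantile normalization, array weights and leaving out 5-week Col6a2-/- females 2 and 4 each gave 2 (Pi16 and Gsn), with 1 to 2 for single libraries. The cause of these moves was not tested. Of the marker counts, 31 moved by over 1.5 times and 545 did not, and of the other lists' counts, in either direction, 211 moved and 2133 did not. At 5 weeks the endothelial count of 5 became 0 to 3 in 4 alternatives and 3 without WT male 3, Col6a2-/- female 1 or Col6a2-/- male 3, the activated fibroblast 8 became 5 with a stricter filter, the adventitial 2 became 5 with quantile normalization and 1 in the fit on the 5-week libraries, and the muscle fibre 3 became 6 with median-of-ratios scaling and 1 with quantile normalization. At 25 weeks, without WT males 2 and 3, the macrophage 7 became 3, the fibroblast 8 became 4, the adventitial 4 became 1 and the activated fibroblast 3 became 1; the fibroblast 8 became 4 without Col6a2-/- male 1 and 5 without WT male 2 or 3. No called difference changed sign. Of the single-marker results, 96 lost a call, 54 gained one and 5597 did neither. Same-numbered libraries correlated at -0.0612 to 0.234 over 16 pairs, 8 above 0.1. Of 32 libraries, 17 correlated best with their own number, where chance would give 1 in 4. Each was set against the 4 libraries of the other genotype at its age and sex. The replicate block also called Dpt in 25-week males and moved no other count of marker calls by over 1.5 times. The fit on the comparison's own libraries was run for the genotype and age comparisons alone. Depth is known only as a relative measure, so no counting error can be given for low genes such as Dpp4.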

Other observations

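A further 5 lists were read beside the markers. Of 4 tested satellite cell and myoblast genes, 3 rose in 5-week Col6a2-/- muscle, against 23.2% of all tested genes, namely Myog by 1.65, Myod1 by 0.58 and Myf5 by 0.26, and 0 were called at 25 weeks in limma (1 at an unadjusted p under 0.05). The genotype difference of Myog changed by -1.24 from 5 to 25 weeks (limma adjusted p 0.0218). Of 8 adipocyte genes, 0 were called in limma at either age (0 and 1 at an unadjusted p under 0.05), with medians of 0.38 and 0.68 and sums from 95.6 to 802 TPM. Of 7 tenocyte genes, 0 were called in limma between genotypes (1 at each age at an unadjusted p under 0.05), and 3 of the 7 (Tnmd, Kera and Scx) fell with age in both genotypes, against 15.3% of all tested genes in WT and 28.8% in Col6a2-/-. Of 5 tested Schwann cell genes, 0 were called in limma between genotypes (0 at an unadjusted p under 0.05 at either age), and with age 3 of the 5 fell in WT and 5 of 5 in Col6a2-/-, against the same shares. None of the 8 T cell genes passed the TPM filter. Their sums ran from 0.177 to 0.695 TPM in WT and from 0.717 to 2.37 TPM in Col6a2-/- at 5 weeks. These ranges did not overlap but nearly met, on genes near the floor. Of single tested genes, 1.18% separated the genotypes at that age with Col6a2-/- higher. At 25 weeks the T cell sums ran from 0.250 to 0.788 TPM in WT and from 0.504 to 2.02 TPM in Col6a2-/-. The part of these 5 lists in the marker differences was not tested.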
